A study of Homo sapiens with 15 samples.

Results

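Replication-dependent core histone genes and the linker histone genes were described in 15 RNA-seq libraries of 12Z cells, an immortalized line of human endometriotic epithelial cells. The members were protein-coding genes with symbols of the H2AC, H2BC, H3C, H4C and H1 series. Of 72 such genes of GENCODE 44 considered here, 70 had an identifier in the count tables, and 55 reached the required mean of at least 1 count per library, of 23184 genes tested in all. By class, 6 of 9 H1, 11 of 15 H2A, 15 of 18 H2B, 10 of 13 H3 and 13 of 15 H4 genes passed. Of the 15 that did not, 10 had no count in any library. Separately, 5 of the 15 share at least 80% of their 50-base stretches with other genes, where reads that match several copies are left out of the counts, and 4 of these (H2AC7, H3C4, H3C14 and H3C15) are among the 10 without a count. Of the members that passed, 3 share as much.

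Cells received a non-targeting siRNA pool (NT) or an siRNA pool against RSAD2 (siRSAD2), which encodes viperin. After 24 hours they were transfected with an empty pBabe vector or with pBabe carrying PIK3CA H1047R, an activated form of the catalytic subunit of PI3-kinase. They were then serum starved for 4 hours and kept in serum-free medium with 100 nM insulin or vehicle for 24 hours. The 5 groups of 3 libraries were NT with empty vector and vehicle, and siRSAD2 with empty vector or H1047R, each with vehicle or insulin. Insulin and H1047R were therefore compared in siRSAD2 cells only, and H1047R was a transient transfection, so that a library can hold cells without the plasmid. Libraries were made with an mRNA kit that selects polyadenylated RNA, and levels are given as CPM, a gene's counts as parts of its library's total on the usual per-library scale, with the total corrected by TMM normalization.

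Core histones H2A, H2B, H3 and H4 form the nucleosome, and linker histone H1 binds the DNA that enters and leaves it. Most of their genes lie in clusters, are transcribed in S phase, and give short mRNAs without introns that end in a conserved stem-loop in place of a poly(A) tail. The stem-loop is bound by SLBP, which directs the processing, export and translation of these mRNAs. Poly(A) selection keeps histone transcripts that carry a poly(A) tail and loses most that end at the stem-loop, so the levels below are of polyadenylated and carried-over histone RNA and do not measure total histone mRNA. H1-10 differs from most linker genes, since it is expressed outside S phase and gives ordinary polyadenylated mRNA.

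Of the 55 members, 47 lie on chromosome 6, 6 on chromosome 1 and 2 elsewhere (H1-10 on chromosome 3 and H4C16 on chromosome 12). The histone stem-loop, 16 bases with a 6-base stem on each side of a 4-base loop, was searched on the sense strand within 150 bases after the stop codon. It was found in 54 members, at a median of 36 bases after the stop (range 23 to 63). The exception was H1-10. The 6 stem-loops here, from GRCh38, are those of members that carry the results below, with the stem in capitals and the loop in lower case.
H2BC12: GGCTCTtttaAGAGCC
H1-2: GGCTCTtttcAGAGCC
H2AC6: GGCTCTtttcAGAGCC
H4C8: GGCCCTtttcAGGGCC
H3C6: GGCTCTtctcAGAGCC
H4C3: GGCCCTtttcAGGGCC
They lie at chr6:27146366-27146381 on the minus strand for H2BC12, chr6:26055744-26055759 (minus) for H1-2, chr6:26124669-26124684 (plus) for H2AC6, chr6:26285131-26285146 (minus) for H4C8, chr6:26225596-26225611 (plus) for H3C6 and chr6:26104317-26104332 (plus) for H4C3. The form of H1-2 and H2AC6 was shared by 28 members, that of H4C8 and H4C3 by 9 members, all H4, and that of H2BC12 by 8 members.

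GENCODE 44 annotates transcripts that run more than 100 bases past the stem-loop for 13 members, 12 of them with AATAAA or ATTAAA in the last 50 bases, the signals used for cleavage and polyadenylation. These are H2AC6, H2BC4, H2BC5, H2BC6, H2BC11, H2BC15, H2BC18, H2BC21, H3C6, H3C10, H4C8 and H4C14, and the last of the 13 is H4C16. Of these 13, 12 reached a mean of 1 CPM over all libraries, against 12 of the 41 stem-loop members with no such transcript, and the median of their mean levels was 4.81 CPM against 0.378 CPM. This split was made after levels were seen and was not tested. H2BC12 and H1-2 were the highest stem-loop members and have no annotated extension, and 57.2% of the 50-base stretches of H2BC12 recur in other genes, so its count leaves out reads that match several copies.

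Promoter sequence was given by RefSeq (GRCh38.p14) for 50 members. Within these windows, which run from before the start to shortly after it, TATAAA on the sense strand was found in 58.0% of members against 7.33% of 35116 promoters of the same length, and CCAAT on either strand in 82.0% against 34.6%. The octamer ATTTGCAT on either strand, the site known for the OCT1 factor in H2B promoters, was found in 12 of 15 H2B and 8 of 10 H2A promoters and in no H1, H3 or H4 promoter (1.77% of all promoters). AAACACA on either strand, known from H1 promoters, was found in 5 of 6 H1 and 1 of 10 H2A promoters (5.64% of all). The 150 bases before the start are shown for 4 members that rose together in the first comparison, with matches to these motifs, which do not overlap each other here, in capitals.
H2BC12: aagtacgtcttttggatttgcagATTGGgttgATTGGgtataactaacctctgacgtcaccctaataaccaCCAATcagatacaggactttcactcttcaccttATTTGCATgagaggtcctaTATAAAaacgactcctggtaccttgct
H2AC6: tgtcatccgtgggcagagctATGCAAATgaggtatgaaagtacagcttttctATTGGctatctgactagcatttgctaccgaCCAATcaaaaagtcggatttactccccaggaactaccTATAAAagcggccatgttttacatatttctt
H1-2: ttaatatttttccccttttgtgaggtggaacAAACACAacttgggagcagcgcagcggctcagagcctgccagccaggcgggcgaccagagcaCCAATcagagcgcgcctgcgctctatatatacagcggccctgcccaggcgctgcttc
H4C8: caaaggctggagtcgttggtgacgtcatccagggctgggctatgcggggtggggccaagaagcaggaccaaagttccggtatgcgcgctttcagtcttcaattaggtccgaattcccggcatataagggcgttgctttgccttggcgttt
These are chr6:27146859-27147008 (minus strand), chr6:26124022-26124171 (plus), chr6:26056471-26056620 (minus) and chr6:26285535-26285684 (minus). The H4C8 stretch holds none of the 4 motifs as spelled, so the 4 genes share no searched motif in these windows.

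Libraries held 16.1 to 39.7 M gene counts. RSAD2 was at 3.0 to 3.69 CPM in NT libraries, 0.0768 to 0.691 CPM in siRSAD2 empty vector vehicle libraries, and at most 1.41 CPM in any siRSAD2 library, and PIK3CA was at 160.4 CPM or more in the H1047R libraries and at most 109 CPM in the others. In siRSAD2 cells RSAD2 averaged 0.899 (vehicle) and 0.837 CPM (insulin) with H1047R, against 0.326 and 0.331 CPM with empty vector. Over both treatments its log2 fold change with H1047R was 1.43 ± 0.34 (edgeR adjusted p = 0.0165). The H1047R comparisons were thus not made at equal RSAD2 levels. The keratins KRT8, KRT18 and KRT19 averaged 938, 644 and 459 CPM, while EPCAM and CDH1 averaged 0.251 and 0.57 CPM, and VIM and COL1A1 1924 and 2521 CPM. Against the epithelial label, the adhesion genes EPCAM and CDH1 were thus near 0. Of the immune markers, the lymphocyte genes CD3E and MS4A1 averaged 0.00463 and 0.0208 CPM, and LYZ and CD68 0.113 and 0.155 CPM. CD14 averaged 3.68 CPM and PTPRC 1.51 CPM, with a highest value of 9.03 CPM for PTPRC. The share of gene counts on the unexpected strand was 6.11 to 6.50% in the 6 H1047R libraries and in replicate 3 of siRSAD2 empty vector insulin, and 5.77 to 5.89% in the other 8, and the labels name no batch. With vehicle, H1047R and this difference cannot be told apart. In replicate 3 of siRSAD2 empty vector vehicle 8.31% of read pairs were unmapped, against 3.97 to 5.45% in the others, and 6 immune markers summed to 12.3 CPM there against 4.04 to 6.19 CPM elsewhere.

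Counts were concentrated in few genes. The linker gene H1-10 averaged 124 CPM over all libraries, H2BC12 80.5 CPM and H1-2 75.3 CPM, and H1-10 and H2BC12 together held 48.6% of all counts of the members. H2AC6 averaged 38.4 CPM, H2BC5 15.2 CPM, H2BC11 14.6 CPM, H3C6 12.9 CPM and H4C8 10.4 CPM, and the 9 highest members held 89.1% of the counts. By class, H1 held 48.1%, H2B 31.7%, H2A 11.4%, H3 4.68% and H4 4.16%. Per kilobase of exon the order changed, with H2BC12 at 163, H1-2 at 103 and H1-10 at 81.6 CPM per kilobase, and H2AC6 at 23.0 CPM per kilobase. The other linker genes were low. H1-4 averaged 1.79 CPM and H1-5 0.781 CPM, and H1-3 and H1-1 had at most 17 and 10 counts in any library. In all, 30 members averaged under 1 CPM and held 2.29% of the counts, so that differences of these were measured with few reads.

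The first comparison asked how these genes differed between siRSAD2 and NT cells with empty vector and vehicle. It rests on a single siRNA pool against RSAD2, without a rescue, and NT libraries share no replicate number with siRSAD2 libraries. Loss of RSAD2, other effects of the pool and a difference between these sets of replicates were therefore not separated. H2BC12, H1-2, H4C8, H2AC6, H2BC4, H2BC21, H2BC5 and H2BC11 rose in siRSAD2 cells, by 1.30-fold to 1.96-fold, and H1-10, H3C10 and H3C1 fell. These 11 calls are from edgeR's quasi-likelihood test at a Benjamini-Hochberg adjusted p below 0.05. The 8 rises are 14.5% of the members, beside 9.82% of all tested genes that rose, and the 3 falls 5.45%, beside 9.72% of all that fell. The median log2 fold change of the 55 members was -0.04, beside 0.02 over all genes. Of the 25 members with a mean of at least 1 CPM over all libraries, 8 rose (32%) and 2 fell (8%), with a median of 0.23. Of the 30 members below 1 CPM, 0 rose and 1 fell (3.33%), with a median of -0.12. Shares of all genes at like levels were not taken, so these 2 sets have no matched background. What follows describes particular genes, and a shift of the group was not tested. Without NT replicate 6, 7 members were called, 6 higher and 1 lower. The calls of H2BC11, H2BC21, H1-10, H3C10 and H3C1 were lost there, so the lower member was not among those named above. In bulk libraries, fewer cells that express a gene and less RNA per cell cannot be told apart.

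H2BC12 (chr6:27146361-27146855, minus strand, GRCh38), an H2B gene of the large cluster, was at 47.5, 47.6 and 41.5 CPM in the NT libraries and at 86.0, 85.8 and 92.5 CPM in the siRSAD2 libraries with empty vector and vehicle. Its log2 fold change was 0.95 ± 0.065 (SE, n = 3 per group, edgeR adjusted p = 2.35e-12). H1-2 (chr6:26055740-26056470, minus), the most abundant stem-loop linker gene here, was at 42.3, 41.4 and 41.8 CPM in NT libraries against 77.0, 81.2 and 87.9 CPM, a log2 fold change of 0.97 ± 0.063 (edgeR adjusted p = 7.54e-13). For both genes every siRSAD2 library stood above every NT library, in this group and in the 3 other siRSAD2 groups, whose lowest values were 72.1 CPM for H2BC12 and 76.8 CPM for H1-2.

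H4C8 (chr6:26277609-26285638, minus), which encodes H4, was at 4.0, 5.29 and 4.72 CPM in NT libraries and 9.75, 8.07 and 9.51 CPM with siRSAD2, a log2 fold change of 0.97 ± 0.12 (edgeR adjusted p = 5.38e-07). H2AC6 (chr6:26124145-26139116, plus), an H2A gene, went from 22.3, 26.2 and 20.5 CPM to 36.0, 35.4 and 40.2 CPM, a log2 fold change of 0.69 ± 0.081 (edgeR adjusted p = 1.58e-07). H2BC4 starts 219 bases from H2AC6 on the opposite strand and went from 3.0, 3.16 and 3.13 CPM to 4.98, 4.88 and 4.90 CPM, with a log2 fold change of 0.67 ± 0.15 (edgeR adjusted p = 0.00119). The groups did not overlap in any of these 3 genes. H2BC5 rose by a log2 fold change of 0.45 ± 0.092, from 11 ± 0.956 to 15.1 ± 1.31 CPM (mean ± SD, n = 3), and its groups did not overlap either.

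H2BC11 and H2BC21, also H2B genes, rose by log2 fold changes of 0.38 ± 0.11 and 0.64 ± 0.20. H2BC11 was at 11.6, 9.96 and 10.2 CPM against 13.4, 12.3 and 15.6 CPM, and its adjusted p of 0.0184 became 0.0809 without NT replicate 5, 0.0578 without NT replicate 6 and 0.132 without siRSAD2 empty vector vehicle replicate 3 (edgeR). H2BC21 was at 4.83, 4.57 and 2.70 CPM against 8.5, 4.65 and 5.87 CPM. Its groups overlapped, and its edgeR adjusted p of 0.024 became 0.159 without NT replicate 6 and 0.248 without siRSAD2 empty vector vehicle replicate 1.

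H1-10 (chr3:129314771-129316286, minus), a linker histone, fell from 139.8, 143 and 142 CPM to 117, 124 and 133 CPM, with a log2 fold change of -0.18 ± 0.060 (edgeR adjusted p = 0.0277). The groups did not overlap. The call was lost without any of 7 single libraries, with adjusted p up to 0.144, namely the 3 NT libraries, siRSAD2 empty vector vehicle replicates 1 and 2, and H1047R vehicle replicates 1 and 2. It was also lost with scaling by library size only (edgeR adjusted p = 0.114) and with unstranded counts (0.0982). Unstranded counts scaled by library size without TMM put H1-10 at 65.6, 70.5 and 68.0 CPM against 59.8, 61.8 and 66.7 CPM, with overlap. The test of unstranded counts used TMM, so that overlap is not on its scale. H1-10, which has no stem-loop, fell while H1-2 rose in the same libraries, and summed over the 6 H1 genes the level was 187 ± 1.81 CPM in NT and 209 ± 13.2 CPM in siRSAD2 libraries (mean ± SD, n = 3).

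Both called H3 genes fell. H3C10 was at 3.65, 4.17 and 4.25 CPM against 2.70, 3.53 and 2.50 CPM, a log2 fold change of -0.47 ± 0.17 with an edgeR adjusted p of 0.0464, which stayed under 0.05 without siRSAD2 empty vector vehicle replicate 2 or any of the 3 empty vector insulin libraries and exceeded 0.05 (up to 0.202) without each of the 11 others. It also exceeded 0.05 with DESeq2 (0.0677), library size only (0.0806), no filter (0.0718) and only the groups compared (0.0769). H3C1 had 14, 12 and 15 counts in NT libraries and 3, 4 and 4 counts in siRSAD2 libraries, a log2 fold change of -1.95 ± 0.60 (edgeR adjusted p = 0.02), and its call was lost without NT replicate 6 or siRSAD2 empty vector vehicle replicate 1 (0.0755 and 0.0663). H3C6, the highest H3 gene, was at 13.6, 10.2 and 12.2 CPM against 14.3, 13.8 and 14.2 CPM and did not pass (log2 fold change 0.23 ± 0.10, edgeR adjusted p = 0.125). H1-4 had a log2 fold change of -0.58 ± 0.28 and H1-5 one of -0.41 ± 0.42, and neither passed (edgeR adjusted p = 0.146 and 0.568).

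**Figure D1:**
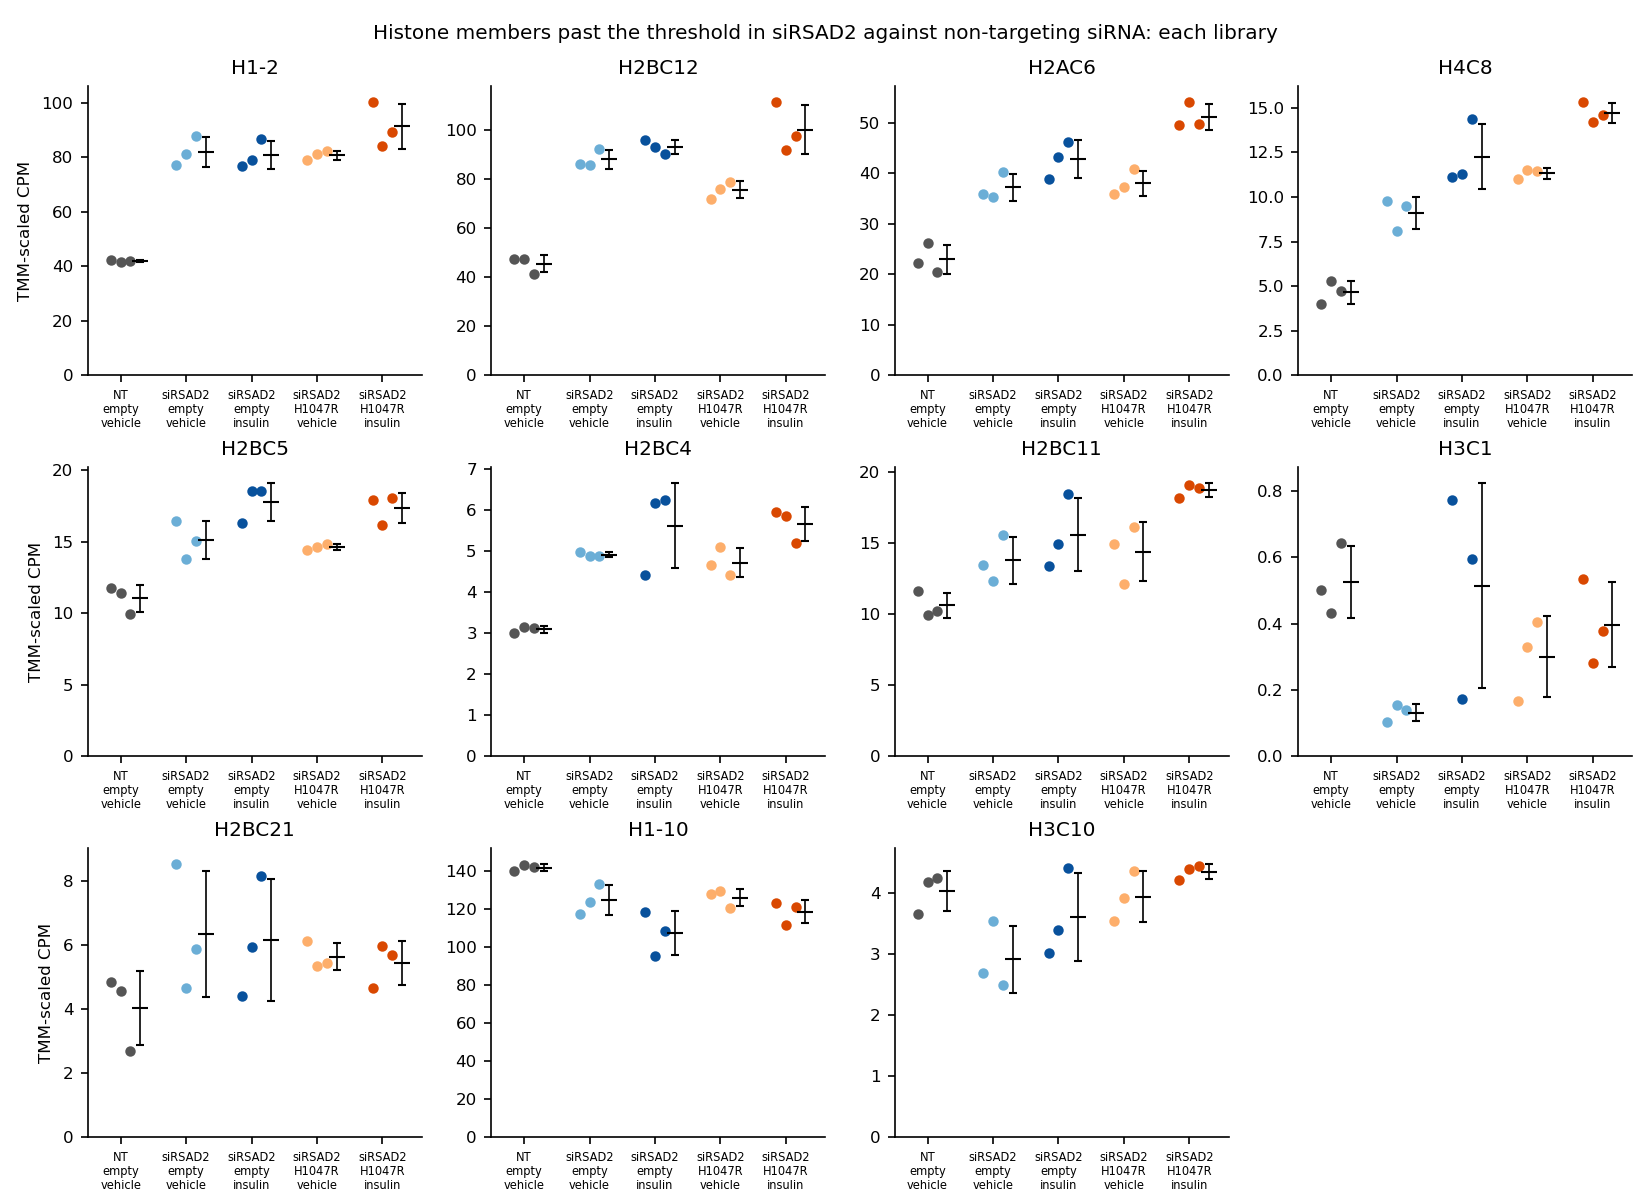
Level (TMM-scaled CPM, linear axes from 0) of the 11 histone genes past the threshold in siRSAD2 against NT, in each of 15 libraries, with points for libraries and the bar beside them for mean ± SD (n = 3). The NT points lie below every siRSAD2 point for H1-2, H2BC12, H2AC6, H4C8, H2BC5, H2BC4 and H2BC11, while H2BC21 overlaps.

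By annotated 3′ end, the rises lay in a few genes. Of the 13 members annotated past the stem-loop, 6 rose, 1 (H3C10) fell and 6 did not pass, with a median log2 fold change of 0.45. The 6 rises are 46.2% of the 13 and the fall 7.69%. Of the 41 with no annotated extension, 2 rose (H2BC12 and H1-2), 1 (H3C1) fell and 38 did not pass, with a median of -0.11. Those rises are 4.88% of the 41 and the fall 2.44%, beside 9.82% and 9.72% of all genes that rose and fell. These sets also differ in level, since 12 of the 13 but only 12 of the 41 averaged at least 1 CPM. Of the 30 members below 1 CPM 0 rose, so most of the 41 had few reads with which to pass. Annotated end and level were not separated. Summed over the 13, the level was 78.9, 81.2 and 72.0 CPM in NT and 112, 101 and 113 CPM in siRSAD2 libraries. H2BC12 and H1-2 together summed to 87.4 ± 3.55 CPM in NT and 170.2 ± 9.13 CPM in siRSAD2 libraries (mean ± SD, n = 3). The other 39 stem-loop members summed to 32.2 ± 2.85 CPM in NT and 29.0 ± 2.23 CPM in siRSAD2 libraries, with overlapping ranges. H2BC12 and H1-2 were set apart after levels were seen. They are also the 2 of the 41 that rose, so the contrast of these sums is no separate result. Unstranded counts, scaled by library size without TMM, also take reads of the opposite strand and so do not measure these mRNAs alone. With them the order of the groups turned, at 43.7, 48.1 and 39.4 CPM in NT and 48.8, 44.4 and 53.3 CPM in siRSAD2 libraries, again overlapping. The difference between these sets was not tested.

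RNAs known to lack a poly(A) tail were summed as well, as carried-over RNA of that kind. A list of 25 such non-coding RNAs, 7SL RNA among them, summed to 6.61 to 9.85 CPM in NT libraries and 8.30 to 11 CPM in siRSAD2 empty vector vehicle libraries, which overlapped. Of its 8 tested genes 0 rose and 0 fell by edgeR, with a median log2 fold change of 0.70. Markers of cell types also passed. Of 8 epithelial markers 4 fell, among them KRT8 (log2 fold change -0.34) and KRT7 (-0.50), and the list summed to 2363 to 2397 CPM in NT and 1909 to 2048 CPM in siRSAD2 libraries. Of 8 stromal markers 6 fell and 2 rose, and their sum was 5913 to 6235 CPM against 5753 to 5876 CPM. Of 5 endothelial markers KDR rose, and the list summed to 7.33 to 9.28 CPM against 11.04 to 12.2 CPM. Of 4 tested immune markers PTPRC rose, with siRSAD2 empty vector vehicle replicate 3 far above the others. Without that library 9 members were called, 7 higher and 2 lower, with H2BC11 and H3C10 lost. The part of the other markers in the histone differences was not tested.

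**Figure D2:**
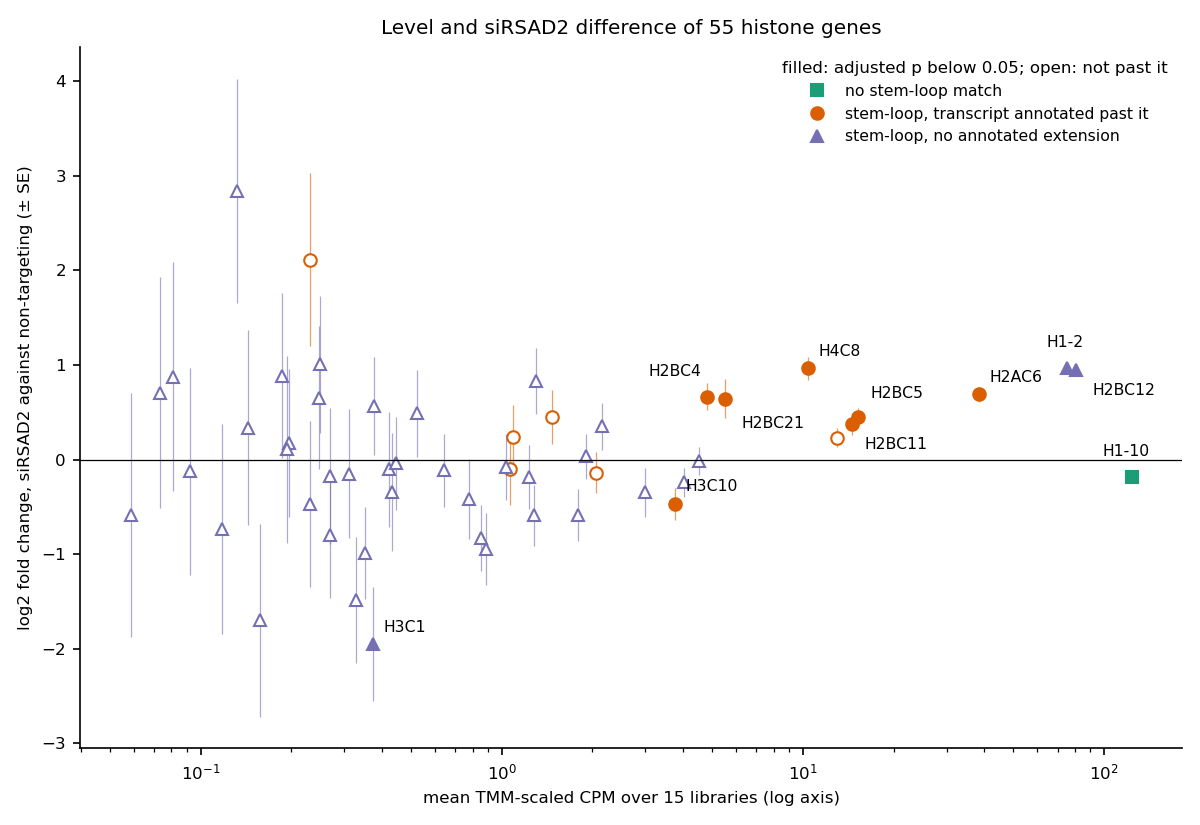
Mean level over 15 libraries (log axis) against the log2 fold change in siRSAD2 against NT, with SE bars, for 55 histone genes, coloured by annotated 3′ end. Filled symbols passed the threshold, and the 8 filled symbols above 0 all lie at 4.81 CPM or more.

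Histone genes in these clusters often start back to back, sharing the stretch between their starts. Of 10 such pairs of members within 1000 bases, only H2BC4 and H2AC6 had both members past the threshold. Starts were taken from the outer ends of the annotated genes. For H3C12, paired with H2BC17, that end lies within H2AC17, which is not a member, so this pair may rest on the annotation. H2BC12 rose by 0.95 on the log2 scale while H2AC12, which starts 251 bases away, was at -0.99 ± 0.48, with a mean level of 0.352 CPM, and did not pass. H2BC11 rose beside H2AC11 (-0.01 ± 0.15), 248 bases apart, and H2BC21 beside H2AC20 (-0.83 ± 0.34, edgeR adjusted p = 0.0925), 236 bases apart. In the other 6 pairs neither member passed.

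Genes that make and package histones were described beside them, from lists chosen with earlier results known. Of 23 genes for histone mRNA transcription and processing, 1 rose and 2 fell in siRSAD2 cells, with a median log2 fold change of -0.02. LSM10, a part of the U7 snRNP that cuts histone pre-mRNA after the stem-loop, went from a mean of 16 to 9.38 CPM, a log2 fold change of -0.77 ± 0.11 (edgeR adjusted p = 4.54e-06). CCNE1, the cyclin E1 that acts with CDK2 at S phase entry, rose by 0.43 ± 0.10 (edgeR adjusted p = 0.0023), and CSTF2, a cleavage stimulation factor subunit, fell (-0.18 ± 0.058). SLBP itself was at 100.1 and 98.4 CPM, a log2 fold change of -0.02 ± 0.048 (edgeR adjusted p = 0.79).

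Genes of S phase and DNA replication were mostly lower. Of 30, 18 fell and 1 (TYMS, thymidylate synthase) rose, with a median of -0.15. RFC5, a clamp loader subunit, had a log2 fold change of -0.55 ± 0.053 and cyclin A2 (CCNA2) one of -0.43 ± 0.045. Of 10 tested replication-independent histone variants, 6 fell, 1 (H3-5) rose and the median was -0.21. CENPA, the centromeric H3, changed by -0.49 ± 0.062 and H2AZ1 by -0.28 ± 0.045. Of 22 histone chaperones 4 fell, led by HJURP, which loads CENPA (-0.42 ± 0.050), and NAP1L1 (-0.26 ± 0.044), and none rose. The median over all genes was 0.02, and the share of all genes that fell was 9.72%.

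**Figure D3:**
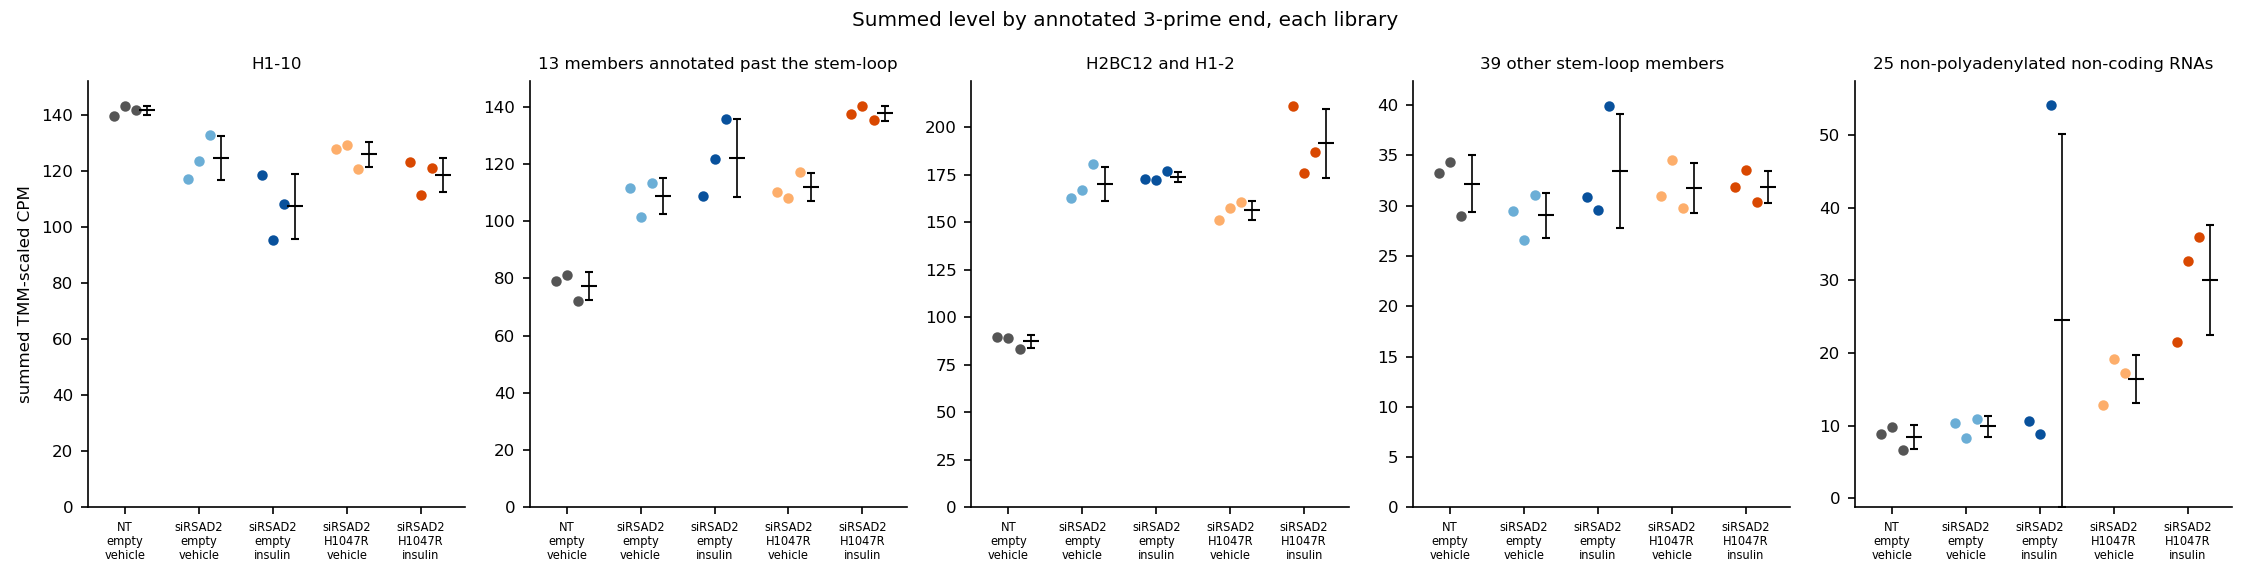
Level (TMM-scaled CPM) of H1-10 and summed level of 13 members annotated past the stem-loop, of H2BC12 with H1-2, of the 39 other stem-loop members and of 25 non-polyadenylated non-coding RNAs, by library, with mean ± SD (n = 3). The sums of the 13 extended members and of H2BC12 with H1-2 are lowest in NT, that of the 39 others stays between 26.6 and 40.0 CPM in all 15 libraries, and that of the non-coding RNAs is high in replicate 3 of siRSAD2 empty vector insulin, at 54.1 CPM. H2BC12 and H1-2 were set apart from the 39 others after levels were seen.

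The next comparisons asked how 24 hours of insulin changed the histone genes in siRSAD2 cells. With empty vector, H4C8 and H2BC17 rose and H1-10 fell. The 2 rises are 3.64% of the members, beside 2.1% of all genes, and the 1 fall 1.82%, beside 4.19%. H4C8 went from 9.75, 8.07 and 9.51 CPM to 11.1, 11.3 and 14.3 CPM, a log2 fold change of 0.41 ± 0.11 (edgeR adjusted p = 0.0216). H2BC17 had 31, 13 and 23 counts with vehicle and 48, 26 and 35 with insulin, a log2 fold change of 1.09 ± 0.32 (edgeR adjusted p = 0.0347). The groups did not overlap in CPM for either gene. H1-10 was at 117, 124 and 133 CPM against 118, 95.4 and 108 CPM, which overlapped (log2 fold change -0.21 ± 0.061, edgeR adjusted p = 0.0306).

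These 3 calls rested on single libraries. Without siRSAD2 empty vector vehicle replicate 2 all 3 were lost and H1-3 passed instead, without vehicle replicate 3 only that of H4C8 was left, and without insulin replicate 3 only that of H1-10. H4C8 had an edgeR adjusted p of 0.12 without vehicle replicate 2 and 0.171 without insulin replicate 3. Insulin replicate 3 is also the library in which the non-polyadenylated RNAs summed to 54.1 CPM, against 10.6 and 8.84 CPM in its fellow replicates, and 7SL RNA (RN7SL1) was called higher with insulin in this comparison (log2 fold change 1.57 ± 0.48).

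With H1047R, insulin raised H2BC12, H2AC6 and H2BC11, 5.45% of the members, beside 0.483% of all genes that rose. No member fell, beside 1.99% of all genes. H2BC12 went from 72.1, 76.2 and 78.8 CPM to 111, 91.8 and 97.6 CPM, a log2 fold change of 0.41 ± 0.063 (edgeR adjusted p = 8.51e-05). H2AC6 went from 36.0, 37.3 and 40.8 CPM to 49.5, 54.0 and 49.8 CPM, with 0.43 ± 0.078 (edgeR adjusted p = 0.00075). Neither gene's groups overlapped, and both stayed past the threshold without any single library. H2BC11 went from 14.9, 12.1 and 16.1 CPM to 18.2, 19.1 and 18.9 CPM (0.40 ± 0.11, edgeR adjusted p = 0.0493). That call was lost, with an edgeR adjusted p of up to 0.375, without any 1 of 8 libraries: NT replicates 5 and 6, empty vector vehicle replicate 1, H1047R vehicle replicates 1 and 2, and the 3 H1047R insulin libraries. It was also lost with only the 12 siRSAD2 libraries (0.0764).

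H4C8 in H1047R cells went from 11, 11.5 and 11.5 CPM to 15.3, 14.2 and 14.6 CPM without overlap but missed the threshold (0.38 ± 0.11, edgeR adjusted p = 0.0576). H1-2 and H2BC5 also did not pass, at 0.18 ± 0.061 and 0.25 ± 0.090. The non-polyadenylated RNAs went from 12.9 to 19.2 CPM with vehicle to 21.6 to 36.0 CPM with insulin in these libraries, which did not overlap, and the sum of the 39 other stem-loop members was 31.8 ± 2.50 and 31.9 ± 1.59 CPM. Unstranded counts take reads of either strand, and their sums were scaled by library size without TMM. For the same 39 members they were 52.7, 57.5 and 50.4 CPM with vehicle and 58.3, 60.5 and 58.6 CPM with insulin, without overlap. Strand setting and scaling both differ from the sums before and were not separated. The part of the non-polyadenylated RNAs in the insulin differences was not tested.

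Averaged over both vectors, insulin raised H2AC6, H2BC12, H4C8, H2BC5 and H2BC11, 9.09% of the members beside 3.15% of all genes, and lowered H1-10, 1.82% beside 5.22%. The log2 fold changes were 0.31 ± 0.055 for H2AC6, 0.24 ± 0.045 for H2BC12, 0.39 ± 0.077 for H4C8, 0.24 ± 0.063 for H2BC5, 0.28 ± 0.079 for H2BC11 and -0.15 ± 0.043 for H1-10. H2AC6, H2BC12, H4C8 and H2BC5 stayed past the threshold without any single library, H2BC5 with an edgeR adjusted p of up to 0.04997. H2BC11 was lost without empty vector vehicle replicate 2, empty vector insulin replicate 3, H1047R vehicle replicate 2 or H1047R insulin replicates 2 or 3 (edgeR adjusted p up to 0.112). H1-10 was lost without empty vector vehicle replicate 3, empty vector insulin replicate 2, H1047R vehicle replicates 1 or 2 or H1047R insulin replicate 2 (up to 0.0784), and with library size only (0.0897). The comparisons of siRSAD2, of insulin with empty vector and of H1047R with vehicle share the siRSAD2 empty vector vehicle libraries, and each insulin comparison shares its libraries with those of H1047R, so their values for a gene are not independent. H1-2 was at 0.08 ± 0.043 and did not pass.

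Cell type markers moved with insulin as well. Averaged over both vectors, 3 of 8 stromal markers fell, VIM (log2 fold change -0.28), PDGFRA (-0.31) and DCN (-0.21), and none rose. Of 8 epithelial markers KRT19 rose (0.12) and KRT18 fell (-0.12), and VWF of 5 endothelial and CD14 of 4 tested immune markers rose (0.54 and 0.44). With H1047R alone VIM and PDGFRA fell, and with empty vector alone VIM, KRT18, KDR and PTPRC fell. The stromal sum was 5753 to 5876 CPM with vehicle and 4920 to 5592 CPM with insulin in empty vector libraries, without overlap, and 5539 to 5710 against 5270 to 5791 CPM in H1047R libraries, which overlapped. The epithelial sums overlapped in both vectors, at 1909 to 2048 against 1762 to 2063 CPM and at 1939 to 2058 against 2005 to 2145 CPM. The endothelial sum was 11.04 to 12.2 against 9.88 to 10.2 CPM with empty vector and 9.63 to 11.8 against 10.01 to 12.01 CPM with H1047R, and the immune sum 4.73 to 12.3 against 4.21 to 5.57 CPM and 4.04 to 4.71 against 5.42 to 6.19 CPM. Of these sums the endothelial one with empty vector and the immune one with H1047R did not overlap. The part of these markers in the insulin differences was not tested.

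**Figure D4:**
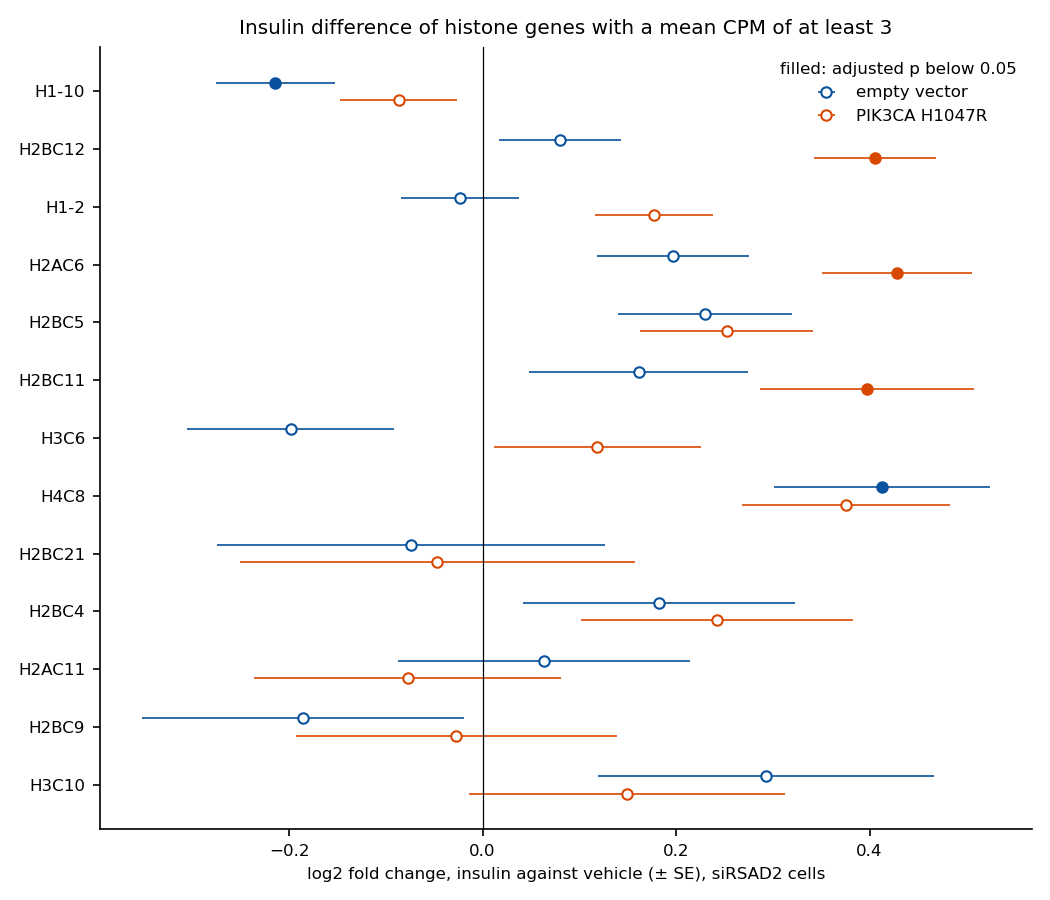
Log2 fold change of insulin against vehicle (points, with SE bars) for the histone genes with a mean of at least 3 CPM, in siRSAD2 cells with empty vector and with PIK3CA H1047R. Filled points passed the threshold. H2BC12 lies at 0.08 with empty vector and 0.41 with H1047R.

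Whether insulin acted differently with H1047R was tested as an interaction. No member passed in edgeR, with 0.0% of all genes called, and none in DESeq2. At an unadjusted p under 0.05 there were 8 of 55 members and 1611 of 23184 genes. H2BC12 had the smallest p, with a difference of 0.33 ± 0.089 on the log2 scale (unadjusted p = 0.001, edgeR adjusted p = 0.687). H1-4 was next with -1.10 ± 0.40, and H2AC6 was at 0.23 ± 0.11 (edgeR adjusted p = 0.687 and 0.714). With no filter on low counts, H2BC12 alone of the members passed.

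H1047R was compared with empty vector at matched treatment. With vehicle H4C3, an H4 gene, rose, 1.82% of the members beside 0.621% of all genes, and none fell, beside 0.742%. It had 52, 53 and 56 counts with empty vector and 68, 186 and 81 with H1047R, or 1.80, 2.04 and 1.94 CPM against 2.83, 4.70 and 4.11 CPM, without overlap (log2 fold change 1.02 ± 0.25, edgeR adjusted p = 0.0302). The call was lost in 5 of 15 runs that left out a library, namely without any of the 3 empty vector vehicle libraries and without H1047R vehicle replicates 2 or 3. H2BC12 was lower with H1047R in every library, at 72.1 to 78.8 CPM against 85.8 to 92.5 CPM, and did not pass (-0.22 ± 0.063, edgeR adjusted p = 0.0816).

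With insulin no member passed in edgeR or DESeq2, beside 0.22% of all genes that rose and 0.0647% that fell in edgeR. At an unadjusted edgeR p under 0.05 there were 8 of 55 members and 2440 of 23184 genes. H2AC6 had the smallest p, at 38.8, 43.3 and 46.2 CPM with empty vector and 49.5, 54.0 and 49.8 CPM with H1047R (0.26 ± 0.078, edgeR adjusted p = 0.173). Averaged over both treatments H4C8 and H4C3 rose, 3.64% of the members beside 1.47% of all genes, and none fell, beside 1.25%. Their log2 fold changes were 0.29 ± 0.077 and 0.62 ± 0.17 (edgeR adjusted p = 0.0332 and 0.0487). H4C8 stayed past the threshold without each NT library, empty vector vehicle replicates 1 or 3, empty vector insulin replicate 3 or H1047R insulin replicate 2, and was lost without each of the 8 others. H4C3 was kept without NT replicate 4, empty vector insulin replicate 3, H1047R vehicle replicate 1 or H1047R insulin replicate 3, and was lost without each of the 11 others. With a term for the share of counts on the unexpected strand, added after the libraries were seen, no member was called in either H1047R comparison or their average. Within groups that term varies only in empty vector insulin, so its estimate rests on replicate 3 of that group alone.

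Genes of the supporting lists were compared with insulin and H1047R as well. Among the histone mRNA factors, CPSF2, a subunit of the cleavage complex, rose with insulin over both vectors (0.11 ± 0.031, edgeR adjusted p = 0.0202), and none passed for H1047R. The chaperone ASF1A, which hands H3-H4 to deposition factors, rose with insulin (0.21 ± 0.038), and CHAF1A, the large subunit of CAF-1, had -0.13 ± 0.035 (edgeR adjusted p = 0.000311 and 0.0148). Of 30 S phase genes 1 rose and 4 fell with insulin over both vectors, beside 3.15% and 5.22% of all genes. Among those that fell were UHRF1 (-0.14 ± 0.035) and CDT1 (-0.20 ± 0.054). None of the 10 tested replication-independent variants passed in any insulin or H1047R comparison in edgeR. The chaperone NAP1L4 was lower with H1047R over both treatments (-0.16 ± 0.040, edgeR adjusted p = 0.0285).

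Over the 5 groups, H2BC12 averaged 45.5 ± 3.53 CPM in NT, 75.7 ± 3.40 in H1047R vehicle, 88.1 ± 3.8 in empty vector vehicle, 93.1 ± 2.80 in empty vector insulin and 100.2 ± 10.0 in H1047R insulin libraries (mean ± SD, n = 3). The ranges of the last 3 groups overlapped in part, and those of NT and H1047R vehicle overlapped no other. H4C8 averaged 4.67 ± 0.642, 9.11 ± 0.909, 11.3 ± 0.299, 12.2 ± 1.82 and 14.7 ± 0.547 CPM in NT, empty vector vehicle, H1047R vehicle, empty vector insulin and H1047R insulin. H1-10 ran from 107 ± 11.6 CPM in empty vector insulin to 142 ± 1.74 CPM in NT. The 55 genes together summed to 339 ± 11.2 CPM in NT, 433 ± 21.8, 437 ± 21.8 and 426 ± 4.93 CPM in empty vector vehicle, empty vector insulin and H1047R vehicle, and 479.6 ± 21.8 CPM in H1047R insulin, where the sum is mostly that of H1-10, H2BC12 and H1-2.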

How the data were processed

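RNA-seq libraries (poly(A)-selected mRNA kit, 500 ng total RNA, 50-base paired reads, n = 3 per group, stated by the study as independent experiments) were trimmed with cutadapt and Trim Galore, and aligned to hg38 with STAR by the authors, who deposited gene counts per library. The reverse-stranded counts were used as deposited. The study names a GENCODE release whose number is of the mouse series, so names came from GENCODE 44 (60357 of 60617 identifiers matched), and the counted gene models may differ from it. Genes whose counts averaged 1 or more over the libraries were tested with edgeR 4.0.16 (TMM, quasi-likelihood, a mean per group, all 15 libraries), with Benjamini-Hochberg adjustment over 23184 genes and a threshold of 0.05. DESeq2 1.42.0 was an alternative. The test was run on simulated data with 200 changed genes. SE is the absolute log2 fold change divided by the square root of F. Same-numbered libraries did not deviate together (correlations -0.032 to 0.058). Members and lists were chosen with earlier results of these data known. Named genes were the passing H1 genes, the 4 highest of each core class, up to 12 called members per comparison, and list genes with the smallest p, and others named (such as SLBP, H3-5, TYMS, H2AC12, H2AC20 and the markers) were added after their values were seen. 1 further gene is not reported here. No protein sequences are shown.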

Additional observations from a re-analysis of the deposited data

How the results depend on the processing

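Counts below are of members past the threshold in edgeR. Shares over all genes in the main fit are given above, and for most other settings they are not given. For siRSAD2 against NT 11 were called, 7 (without NT replicate 6) to 12 without any single library, and 5 at an adjusted p under 0.001 (H1-2, H2BC12, H2AC6, H4C8 and H2BC5). At 0.001, 824 of all 23184 genes rose and 937 fell, beside these 5 rises among 55 members. Insulin with empty vector (3) gave 1 to 4 without a library, 0 with only the groups compared, 0 at an adjusted p under 0.001, 0 with a forward-strand term and 1 with only the 12 siRSAD2 libraries, both added after the data were seen. Insulin with H1047R (3) gave 2 to 4 without a library, 5 with only the groups compared and 2 with the 12 siRSAD2 libraries. H1047R with vehicle (1) gave 0 to 2 without a library, 2 with DESeq2, with no filter and with only the groups compared, where H2BC12 also fell, and 0 under the forward-strand term and at 0.001. H1047R with insulin (0) gave 0 to 1 without a library and 1 with no filter (H2AC6). The interaction (0) gave 0 without any library and 1 with no filter. Insulin over both vectors (6) gave 4 to 7 without a library and 3 at 0.001, where 133 of all 23184 genes rose and 518 fell. H1047R over both treatments (2) gave 0 to 3 without a library, 1 with unstranded counts, with only the groups compared and with the 12 siRSAD2 libraries, and 0 under the forward-strand term and at 0.001. H4C8 turned from 0.29 to -0.0045 on the log2 scale under that term for H1047R over both treatments. All values under the forward-strand term rest on empty vector insulin replicate 3 for its estimate. The causes were not tested. Of 628 alternative values for the 26 called genes by comparison, 526 kept their direction and call and 101 lost the call.

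With the replicate number as a block (12 siRSAD2 libraries), insulin with empty vector gave 2 members, insulin with H1047R 3, H1047R 1 with vehicle and 0 with insulin, the interaction 0, and the averages 6 and 2. The numbers are not shown to pair the samples, and NT shares none with siRSAD2. Summed CPM of all members in NT was 339, 325 by library size only and 267 with unstranded counts, also scaled by library size only. With 30 members under 1 CPM, differences in these were detectable only if large.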
